A study of Mus musculus with 6 samples.

Results

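4T1 is an established mouse mammary carcinoma line of BALB/c origin that spreads to lung, liver, bone and other organs when grafted into mice. The transcriptome of its mock-transfected form is described here from the 2 libraries labelled WT, out of 6 libraries of the series. They were chosen by their label alone, and gene symbols were ranked by the mean of both. The study asked what a long noncoding RNA does in 4T1 cells, and its other 4 libraries, of cells with hairpins against that RNA, are not used here. The WT cells are 4T1 cells that had been mock transfected, with no other treatment named, and each library is polyadenylated RNA of such cells prepared with a stranded kit. A line grown in culture holds no stroma, blood vessels or immune cells of a tumour. The labels do not say whether the 2 libraries came from separate cultures, so the spread between them may be technical. No group is compared with another, and no test was made.

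Mammary epithelium consists of an inner luminal layer, which makes milk and carries the simple keratins Krt8 and Krt18, and an outer basal layer of contractile cells with the keratins Krt5 and Krt14. Carcinoma cells that invade often lose junction genes such as Cdh1 and gain mesenchymal genes such as Vim, a shift called the epithelial-mesenchymal transition (EMT). Carcinoma cells also secrete chemokines and colony-stimulating factors, which draw and expand myeloid cells, and 4T1 is known for the neutrophil excess it causes in mice.

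Each table holds 24346 symbols. Without 1278 short RNA symbols (Mir, Mirlet, Snora, Snord and Scarna), 23068 were described. Levels are in FPKM, fragments per kilobase of transcript scaled to a common number of mapped fragments, a scale on which genes can be compared because it allows for length. Pairs of values are given for WT replicate 1 and WT replicate 2, in that order. A mean under 0.1 FPKM is called silent, 0.1 to 1 low, 1 to 10 moderate, 10 to 100 high, and 100 or more very high. From the steps between low values, the libraries hold an estimated 16100000 and 16000000 fragments. Effective length is the transcript length less an estimated 180 and 200 bases. At 2 kb of effective length, 1 FPKM is about 32.3 and 32.1 fragments. A value of 0 allows up to 0.186 and 0.187 FPKM at 1 kb of effective length, the level of 3 fragments. These limits cover counting error only. Across symbols of at least 10 FPKM the libraries differed by a median of 4.42%, and across low symbols by 33.9%. Pearson's r across 10972 genes was 0.996 on log2(FPKM + 1), where genes are not independent replicates.

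About as many genes were silent as were expressed. Of the 23068 symbols, 10972 or 47.6% reached a mean of 1 FPKM, and 10858 did so in both libraries. A further 10314 or 44.7% were silent, of which 8589 were listed at 0 in both libraries. High genes numbered 6113. The 773 very high genes, 3.35% of the symbols, held 61.3% of the summed FPKM. The median of the genes at 1 FPKM or more, 15.3 FPKM, fell in the main peak of the distribution of levels. Zeros were rare among genes that every cell uses: 288 of 292 symbols in 8 families, among them mitochondrial ribosomal proteins and RNA polymerase II subunits, reached 1 FPKM, and the only 2 at 0 were Psma8 and Psmb11, proteasome subunits of testis and thymus.

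**Figure D1:**
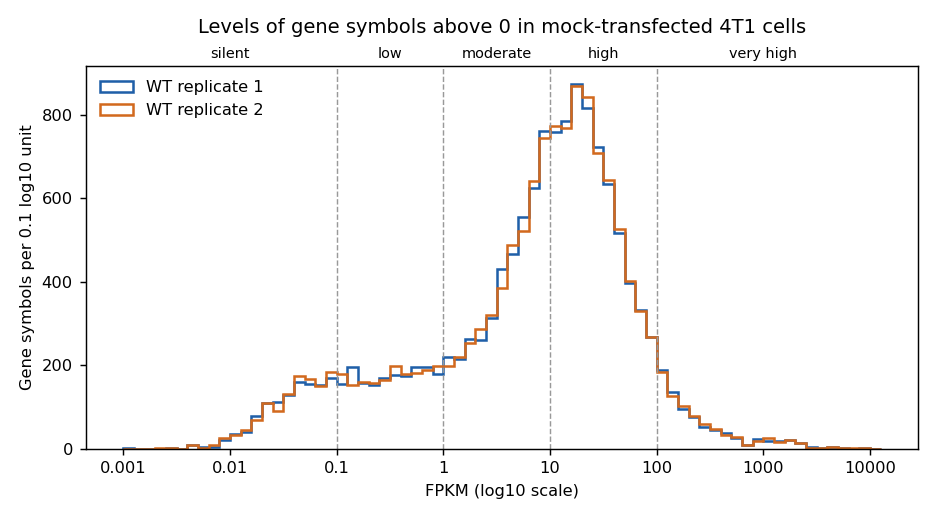
Number of gene symbols per 0.1 log10 unit of FPKM (log10 horizontal scale) in each WT library, with symbols at 0 left out and dashed lines at the bounds of the 5 level classes. Both libraries show 1 main peak between 10 and 100 FPKM and a low shoulder below 1 FPKM.

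The promoters of 5 genes show sequence beside level, and they were picked after the levels were known. They come from RefSeq on build GRCm38.p6, which matched 17187 of the 23068 symbols (74.5%). Of these symbols 2654 had several promoters, and only the first listed was used in all promoter counts. Each line below gives the 150 bases before the annotated start, 5′ to 3′ on the gene's strand. The first pair are chemokine genes near each other on chromosome 5 with unlike levels: Cxcl1, at chr5:90891095-90891244 on the plus strand, and Cxcl2, at chr5:90903749-90903898 on the plus strand. Capitals mark the NF-kB letters GGGANNTTCC, searched on both strands, where the matches of the 2 strands overlap and run on by 1 base.
Cxcl1: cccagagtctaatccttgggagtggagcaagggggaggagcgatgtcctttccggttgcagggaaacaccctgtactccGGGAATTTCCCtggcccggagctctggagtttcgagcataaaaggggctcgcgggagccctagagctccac
Cxcl2: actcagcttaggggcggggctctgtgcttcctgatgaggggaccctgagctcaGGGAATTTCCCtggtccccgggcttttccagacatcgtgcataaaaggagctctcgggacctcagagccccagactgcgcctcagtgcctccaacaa

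Both promoters hold the same letters, beginning 71 bases before the start in Cxcl1 and 97 bases before it in Cxcl2. Cxcl1, a chemokine that attracts neutrophils, stood at 539.6 and 534.6 FPKM. Cxcl2, which acts on the same receptor, stood at 0.351 and 0.142 FPKM. The motif letters were thus present at a very high gene and at a low one. Windows of 300 bases (250 before and 50 after the start) were searched as well. In these, GGGANNTTCC occurred in 5 of 25 chemokine promoters (Ccl1, Cxcl1, Cxcl2, Cxcl3 and Cxcl10) and in 1.38% of all promoters. Of the 25 chemokine genes 5 reached 1 FPKM, and of these Cxcl1 and Cxcl10 had the letters.

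The other 3 lines are mitotic genes. Capitals mark CCAAT and the CHR letters TTTGAA (cell cycle genes homology region), searched on both strands, so that ATTGG and TTCAAA are the same letters on the other strand. Cdk1 lies at chr10:69352913-69353062, Cdc20 at chr4:118437344-118437493 and Top2a at chr11:99024190-99024339, all on the minus strand.
Cdk1: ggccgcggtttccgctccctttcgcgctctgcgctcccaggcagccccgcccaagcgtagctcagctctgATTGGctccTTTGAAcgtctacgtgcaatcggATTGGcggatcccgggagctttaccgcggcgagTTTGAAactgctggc
Cdc20: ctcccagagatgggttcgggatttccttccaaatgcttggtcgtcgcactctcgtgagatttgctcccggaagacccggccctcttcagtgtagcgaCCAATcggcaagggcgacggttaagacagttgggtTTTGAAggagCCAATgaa
Top2a: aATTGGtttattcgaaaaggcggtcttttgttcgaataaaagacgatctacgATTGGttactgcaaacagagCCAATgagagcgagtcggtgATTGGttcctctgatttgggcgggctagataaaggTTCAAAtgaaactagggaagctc

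Cdk1, the kinase that drives entry into mitosis, stood at 73.2 and 74.2 FPKM. Cdc20, an activator of the anaphase-promoting complex, stood at 96.2 and 101 FPKM, and Top2a, the topoisomerase that untangles chromosomes, at 267 and 259 FPKM. Over the 28 mitotic genes with a promoter in the table, CCAAT was present in 21, the CHR letters in 21 and both in 18 (64.3%). Of all 17187 promoters, 38.7% held CCAAT, 15.8% the CHR letters and 1118 or 6.505% both. A match is a description of letters and not of binding.

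Promoter composition moved with level across the genome. The ratio of observed to expected CpG pairs had a median of 0.243 in 7516 promoters of silent genes, 0.470 in low, 0.744 in moderate, 0.812 in high and 0.803 in very high genes. Quartiles of the silent class ran from 0.115 to 0.473 and those of the high class from 0.666 to 0.941, so the ranges between quartiles of these classes did not overlap. The letters TATAAA were in 20.4% of silent promoters, 5.51% of high and 10.8% of very high ones, and in 12.8% of all. Genes share neighbourhoods and families, and these medians carry no test.

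**Figure D2:**
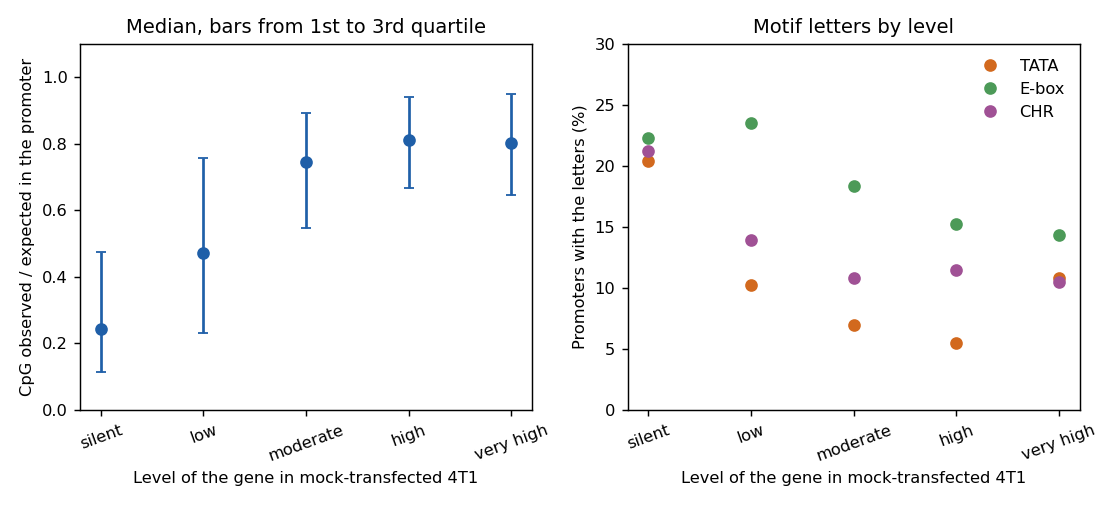
Left, median ratio of observed to expected CpG pairs in the 300-base promoter by level class, with bars from the first to the third quartile. Right, percentage of promoters holding the letters of the TATA, E-box (CAGGTG) or CHR motif on either strand. The CpG ratio is 0.243 in silent and 0.812 in high genes, and the TATA share is 20.4% and 5.51%.

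The most abundant transcripts mixed the machinery of translation with secreted and iron-storage proteins. Of the 100 leading symbols 58 were ribosomal proteins, and together the 100 held 33.9% ± 0.206 (SD, n = 2) of the summed FPKM. Eef1a1, the translation factor that delivers aminoacyl-tRNA, led with 8221 and 8289 FPKM. Second came Lcn2 (lipocalin 2, a secreted protein that binds iron-carrying siderophores) with 6242 and 6323 FPKM, from chr2:32384633-32388252 on build mm10. Lgals1, galectin 1, followed with 5109 and 5358 FPKM and Spp1 (osteopontin) with 5006 and 4956 FPKM. The ferritin genes Ftl1 and Fth1 stood at 4157 and 4588 and at 4279 and 4330 FPKM. Ferritins, ribosomal proteins, Tpt1 (4322 and 4287) and Ppia (2909 and 2826) have many near-identical copies in the genome, so their levels are uncertain. The processed pseudogene Gm15772 was itself listed at 2023 and 2077 FPKM.

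The luminal keratins Krt8 and Krt18 were very high, and basal and stratified keratins other than Krt10 were low or silent. Of 6 simple epithelial keratins 5 reached 1 FPKM. Krt18 stood at 495 and 515 FPKM and its filament partner Krt8 at 421 and 435 FPKM. Krt7 (9.65 and 9.85), Krt23 (2.26 and 2.24) and Krt19 (1.79 and 1.33) were far lower, and Krt20 was listed at 0. Of 11 basal and stratified keratins 1 reached 1 FPKM, against 47.6% of all symbols, and 8 were silent, against 44.7%. That 1 was Krt10, at 1.27 and 1.15 FPKM. Krt5, Krt6a, Krt6b and Krt15 were listed at 0 and Krt14 at 0.042 and 0. For Krt5 a value of 0 allows up to 0.0922 and 0.0937 FPKM.

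Genes of epithelial junctions split. Of 27, 15 reached 1 FPKM (55.6%, against 47.6% of all symbols), 6 were low and 6 were silent. Spint2, an inhibitor of membrane serine proteases, was very high at 187 FPKM in both libraries. The tight junction genes F11r (54.9 and 56.3), Tjp1 (46.7 and 44.8) and Cldn3 (21.81 and 25.004) were high, as was Jup (plakoglobin, 40.7 and 44.9). The defining epithelial genes were much lower: Cdh1 (E-cadherin) stood at 1.28 and 1.22 FPKM and Epcam at 2.18 and 2.04 FPKM. Cldn7 was at 0.236 and 0, and Cldn1, Crb3, Dsg2 and Pkp1 were listed at 0. Set against the label of a carcinoma line, Krt8 and Krt18 were very high, part of the junction genes were high, and the defining genes Cdh1 and Epcam were moderate.

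Regulators of the epithelial state ranged from high to 0. Of 19, 9 reached 1 FPKM (47.4%, close to the 47.6% of all symbols) and 7 were at 0. Tfap2a (26.1 and 26.3), Klf4 (20.8 in both), Klf5 (12.6 and 13.2) and Elf3 (11.9 and 12.5) were high. Esrp1, a splicing factor of epithelial cells, was listed at 0, which allows up to 0.109 and 0.111 FPKM, and its paralogue Esrp2 stood at 2.23 and 2.21. Grhl2 was at 0.116 and 0.104, and Ovol2, Grhl3, Ehf and Elf5 were at 0. Trp63, a basal regulator, was moderate at 3.51 and 2.62 FPKM, although other basal genes such as Acta2 (0 and 0.052) and Myh11 (0.057 and 0.029) were silent. Mme was listed at 0, which allows up to 0.478 and 0.507 FPKM, so it may be low. In all, 5 of 18 basal and myoepithelial genes reached 1 FPKM (27.8%, against 47.6% of all symbols).

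Among luminal factors, Xbp1, a regulator of secretory capacity, stood at 133 and 136 FPKM and Gata3, the luminal master factor, at 35.9 and 41.3. Foxa1 of the same list had a mean under 1 FPKM. Bcl11a and Rora were listed at 0, which allows up to 0.140 and 0.143 and up to 0.0771 and 0.0783 FPKM. Of the ovarian and pituitary hormone receptors, Esr1 (oestrogen receptor) was moderate at 1.51 and 1.32, Pgr (progesterone receptor) at 0 and 0.009, and Prlr (prolactin receptor) at 0. Of 19 luminal and hormone genes 7 reached 1 FPKM (36.8%, against 47.6% of all symbols) and 9 were silent, close to the 44.7% of all symbols. Of 15 milk genes 5 reached 1 FPKM (33.3%). The membrane and lipid droplet genes Mfge8 (502 and 544 FPKM), Plin2 (314.7 and 333.5) and Xdh (68.8 and 72.3) were expressed, and so were Csn3, kappa-casein, at 36.4 and 39.0 and the water channel Aqp5 at 20.4 and 22.4. The caseins Csn1s1, Csn1s2a, Csn1s2b and Csn2 and the whey genes Wap and Lalba were all listed at 0.

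Mesenchymal genes held some of the highest levels in the cells. Of 25, 13 reached 1 FPKM (52.0%, close to the 47.6% of all symbols), all of them above 10 FPKM, and 9 were silent. Vim (vimentin) stood at 1523 and 1588 FPKM, S100a4 at 967.5 and 874.9, Fn1 (fibronectin) at 592 and 609 and Sparc at 317 and 324. At the other end, Cdh2 (N-cadherin) and the fibrillar collagen genes Col1a2 and Col3a1 were listed at 0 and Col1a1 was at 0.721 and 0.743. For Cdh2 the 0 allows up to 0.0516 and 0.0522 FPKM. Cdh1, at 1.28 and 1.22 FPKM, therefore made up 99.4% of the summed level of the 5 classical cadherins listed.

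Some EMT factors were high and their close relatives at or near 0. Of 18, 11 reached 1 FPKM (61.1%, against 47.6% of all symbols) and 5 were silent. Snai1 stood at 29.7 and 31.8 FPKM, Twist1 at 19.9 and 20.5 and Zeb2 at 12.5 and 12.1. Their relatives were not detectable or nearly so at this depth: Snai2 and Snai3 were listed at 0, Twist2 was at 0.056 and 0, and Zeb1 at 0.076 and 0.088. Sox4 was the highest of the list at 113 and 114 FPKM. The surface genes used to sort mammary progenitors were high or very high for Cd24a at 216.1 and 214.5, Cd44 at 65.1 and 64.2 and Itga6 at 46.1 and 44.8 FPKM, whereas Prom1, Kit, Lgr5, Aldh1a3 and the pluripotency genes Nanog, Pou5f1 and Sox2 were listed at 0.

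**Figure D3:**
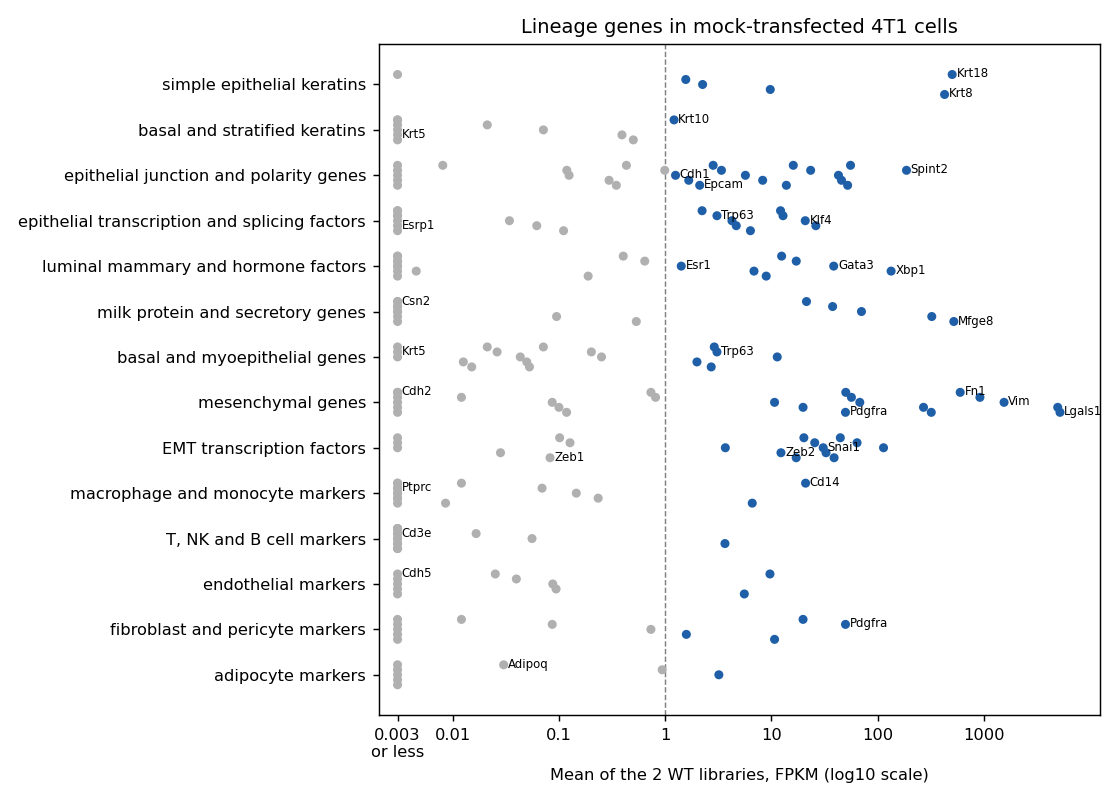
Mean FPKM of the 2 WT libraries (log10 horizontal scale) for each gene of 14 lists of lineage and other cell types, 1 point a gene, blue at 1 FPKM or more and grey below, with a dashed line at 1 FPKM. Means at or under 0.003 FPKM are drawn at the left edge, only 1 of them is named per list, and vertical offsets within a list carry no meaning. Krt18 and Krt8 stand above 100 FPKM, and most monocyte, lymphocyte and adipocyte genes lie at the left edge.

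Hox genes at 1 FPKM or more lay in 1 of the 4 clusters. Hox genes are transcription factors laid out in clusters whose order mirrors the body axis. Of 39 measured, 7 reached 1 FPKM (17.9%, against 47.6% of all symbols), all in the Hoxa cluster on chromosome 6. Silent members numbered 28, against 44.7% of all symbols. Hoxa5 was highest at 63.1 and 59.8 FPKM (chr6:52201754-52204587), followed by Hoxa10 at 24.8 and 25.6 (chr6:52231197-52240854) and Hoxa2 at 18.7 and 16.6. Hoxa9, which lies next to Hoxa10, stood at only 0.944 and 0.865, Hoxa4, next to Hoxa5, at 0.604 and 0.564, and Hoxa11 at 0. The annotated gene Hoxa3 (13.2 and 14.9) spans Hoxa4 to Hoxa6, so reads there may be shared. Every Hoxb and Hoxd gene measured was listed at 0, and the only Hoxc gene above 0 was Hoxc6, at 0.133 and 0.224.

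Imprinted genes, which are read from 1 parental copy and are active mostly in the embryo, were silent in 14 of 20 cases, against 44.7% of all symbols. H19, Meg3, Peg3, Peg10, Dlk1 and Grb10 were listed at 0 and Igf2 at 0 and 0.053, whereas Gnas stood at 953 and 974 FPKM and Igf2r at 58.7 and 59.9. Xist, the RNA that coats an inactive X chromosome, was at 0.005 and 0.007 FPKM, and 6 genes of the Y chromosome (Ddx3y, Eif2s3y, Kdm5d, Sry, Usp9y and Uty) were at 0. By chromosome, the share of protein-coding genes at 1 FPKM or more ran from 61.4% on chromosome 12 down to 41.6% on chromosome 7 and 35.3% on X. Of 35 protein-coding genes of Y, all were at 0.

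Markers of other cell types were mostly at or near 0, with exceptions. They concern other cells in the culture and cannot check which line it is. Of 85 such genes 11 reached 1 FPKM (12.9%, against 47.6% of all symbols) and 68 were silent. The share was highest in the fibroblast and pericyte list, 4 of 12 (33.3%). Ptprc (CD45), Itgam, Adgre1, Cd3e, Cdh5, Kdr, Hbb-bs and Gfap were listed at 0. Their limits ran from 0.0324 and 0.0327 FPKM for Kdr to 1.15 and 1.32 for Adgre1. The limits of Cdh5 (1.12 and 1.28), Hbb-bs (0.819 and 0.904) and Ptprc (0.791 and 0.871) were also wide, so these genes may be low. The exceptions were Cd14 (19.3 and 22.6) and Cd68 (6.497 and 6.691) of the monocyte list, Lck (2.92 and 4.38) of the lymphocyte list, Flt1 (9.42 and 9.95) and Plvap (4.98 and 6.13) of the endothelial list, and Pdgfra (49.96 and 49.74), Pdgfrb (20.2 and 19.6), Dcn and Rgs5 of the fibroblast and pericyte list. Pparg of the adipocyte list stood at 3.26 and 3.14, and S100a8 of the neutrophil list at 71.8 and 85.4 FPKM. Other defining genes of these lists were at or near 0, such as Csf1r (0.017 and 0), Tie1 (0), Col3a1 (0) and Mpo (0). The partner of S100a8 in calprotectin, S100a9, was at 0.398 and 0.

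Among growth factor receptors 1 gene stood far above the rest. Of 53 receptor tyrosine kinases 28 reached 1 FPKM (52.8%) and 23 were silent, close to the 47.6% and 44.7% of all symbols. Axl, a receptor for the vitamin K-dependent protein Gas6, was highest at 264 and 278 FPKM and made up 96.8% ± 0.147 (SD, n = 2) of the TAM family of Axl, Tyro3 and Mertk. Its ligand Gas6 was at 0.077 and 0, and Pros1, a ligand of the same family, at 13.6 and 12.7. The pseudokinase Ryk (88.8 and 87.1), Fgfr2 (75.01 and 76.84), Epha2 (54.95 and 59.95), Fgfr1 (44.6 and 48.9) and Met (18.7 and 18.1) were high.

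ErbB receptors were moderate at most. Erbb2 stood at 6.88 and 7.43 FPKM, Egfr at 2.66 and 3.13, Erbb3 at 0.417 and 0.276 and Erbb4 at 0. These levels are of RNA. Ligands of Egfr were present, with Tgfa at 16.60 and 15.95, Hbegf at 10.5 and 9.62 and Areg at 7.62 and 6.08, while Egf was at 0.228 and 0.149 and Ereg at 0. Both PDGF receptors (Pdgfra and Pdgfrb) were high beside the ligand Pdgfa, at 75.2 and 79.8 FPKM, so ligand and receptor RNA occurred in the same culture.

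Nuclear receptors were led by Nr1h2 (liver X receptor beta, 57.7 and 63.7 FPKM) and Rara (retinoic acid receptor alpha, 44.0 and 48.8). In this list 27 of 48 reached 1 FPKM (56.25%, against 47.6% of all symbols). No member of this list had a mean between 0.1 and 1 FPKM: the other 21 were all silent, 13 of them at 0. The glucocorticoid receptor Nr3c1, at 17.6 and 16.6, held 87.2% of the summed level of 6 steroid receptors, of which Esr1 held 7.18%.

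Of 52 cytokine receptors 26 reached 1 FPKM (close to the 47.6% of all symbols). Tnfrsf12a, the receptor of the cytokine TWEAK, stood at 137 and 139 FPKM and Il6st (gp130, the shared signalling chain of the IL-6 family) at 97.7 and 96.5. Of the chains that pair with gp130, Osmr stood at 28.0 and 28.2, Il6ra at 11.8 and 12.6, Lifr at 5.54 and 5.20 and Il11ra1 at 2.88 and 2.59. Receptors for TNF (Tnfrsf1a, 69.0 and 70.7), interferon (Ifnar2, 52.5 and 54.4; Ifngr1, 21.4 and 20.2) and IL-1 (Il1r1, 22.1 and 22.2) were also high. Colony-stimulating factor receptors were not: Csf1r was at 0.017 and 0, Csf3r at 0.018 and 0, Csf2rb at 0.067 and 0.068 and Csf2ra at 0.

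Of the 7 receptor lists, chemokine receptors had the lowest share of expressed genes, 4 of 23 (17.4%) at 1 FPKM or more. The share of all symbols was 47.6%. Silent members numbered 17, against 44.7% of all symbols. Ackr3, an atypical receptor that takes up Cxcl12, led with 42.1 and 45.2 FPKM. Cxcr4, the signalling receptor of Cxcl12, was moderate at 1.53 and 1.20, and Cxcl12 itself was at 0. Cxcr2, the receptor of Cxcl1 and Cxcl5, stood at 0.151 and 0.044, and Ccr2, the receptor of Ccl2, at 0.

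Receptors of TGF-beta, Notch, Hedgehog and Wnt were broadly expressed, 23 of 32 at 1 FPKM or more (71.9%, against 47.6% of all symbols). Tgfbr1 stood at 59.7 and 56.2 FPKM and Tgfbr2 at 38.1 and 38.6, and the Wnt coreceptor Lrp5 at 53.8 and 56.8. Notch1 (14.5 and 15.1) and Notch2 (15.5 and 15.3) stood close together, and Notch3 (1.16 and 1.26) and Notch4 (0.220 and 0.309) were lower. Of 27 innate sensor genes 16 reached 1 FPKM (59.3%, against 47.6% of all symbols). They included Tlr4 (18.8 and 18.5), Tlr2 (11.9 and 11.6), the adaptor Myd88 (32.7 in both) and the DNA sensing adaptor Tmem173 (STING, 26.0 and 24.4). Of the endosomal sensors, Tlr3 reached 1 FPKM, and Tlr8 and Tlr9 were at 0, which for Tlr8 allows up to 0.610 and 0.657 FPKM. Among receptors for small mediators, F2r, the thrombin receptor, was highest at 49.6 and 49.5 FPKM.

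Secreted factors included a few very high and many silent members. Of 36 chemokines 10 reached 1 FPKM (27.8%, against 47.6% of all symbols) and 19 were silent, yet 4 exceeded 100 FPKM. Beside Cxcl1, these were Cxcl5 at 413 and 383 FPKM, Ccl2, which attracts monocytes, at 264 and 269, and Ccl5, which attracts T cells and monocytes, at 137 and 163. Cxcl16, Cx3cl1, Cxcl10 and Ccl7 lay between 11.6 and 28.3 FPKM. On the same stretch of chromosome 5 as Cxcl1 and Cxcl5, Ppbp was at 0.775 and 0.713, Cxcl3 at 0.076 and 0 and Cxcl2 at 0.351 and 0.142, so very high, low and silent genes lie side by side there. The T cell attractant Cxcl9 was at 0.091 and 0.023, and Ccl3, Ccl4, Ccl22 and Cxcl12 were at or near 0.

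Of 48 cytokines 15 reached 1 FPKM (31.25%, against 47.6% of all symbols). After Spp1 the highest were Mif (macrophage migration inhibitory factor) at 529 and 624 FPKM, Tslp (an epithelial cytokine that acts on dendritic cells) at 227 and 211, Csf3 (G-CSF, which drives neutrophil production) at 117 and 115 and Csf1 (M-CSF) at 72.9 and 73.3. The colony-stimulating factors thus had the order Csf3, Csf1 and Csf2, with Csf2 (GM-CSF) at 2.24 and 2.41, and neighbours in this order lay further apart than the 2 libraries. The inflammatory interleukins Il6 (0.419 and 0.212), Il1a (0.624 and 0.386) and Il1b (0.548 and 0.388) were low, and Tnf was silent at 0.044 and 0. Ifng, Il4, Il10, Il12b and Il17a were listed at 0. Il33, of the IL-1 family, was high at 16.5 and 14.9.

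**Figure D4:**
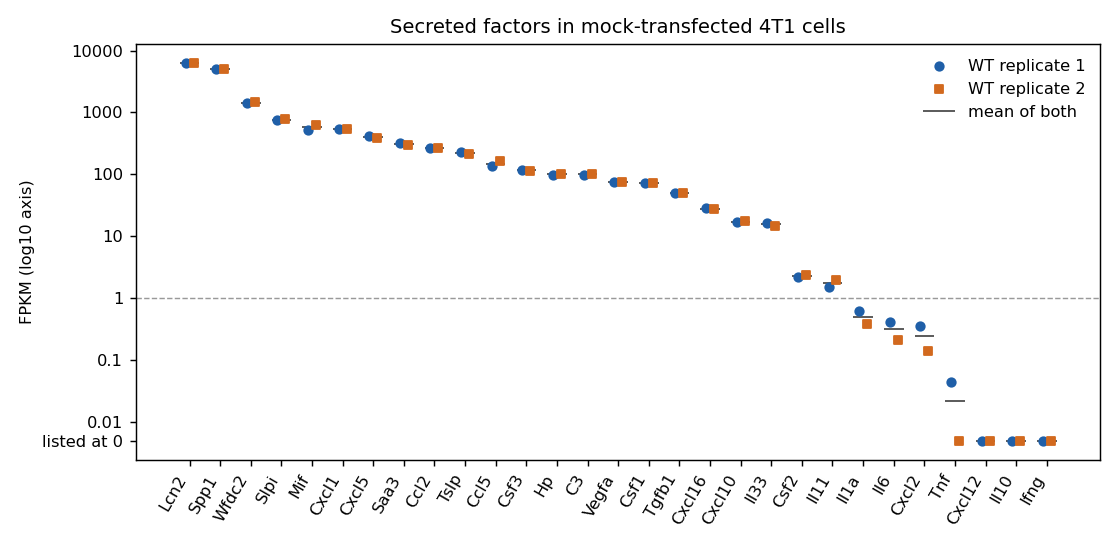
FPKM (log10 axis) of 29 secreted factors in WT replicate 1 (circles) and WT replicate 2 (squares), with a bar at their mean and a dashed line at 1 FPKM. Values at 0 are drawn on the bottom tick. From Lcn2 to Il33 every factor is above 10 FPKM in both libraries, and Il1a, Il6, Cxcl2 and Tnf are below 1 FPKM.

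Of 25 acute phase and defence proteins 17 reached 1 FPKM (68.0%, against 47.6% of all symbols) and 6 exceeded 100. After Lcn2 came the protease inhibitors Wfdc2 (1399 and 1478 FPKM) and Slpi (747 and 791), then the acute phase protein Saa3 (322.6 and 301.3) and the chaperone Clu (181 and 185). Haptoglobin (Hp, 97.2 and 103) and complement C3 (98.9 and 101) were near 100. Saa1 (10.6 and 12.1) and Saa2 (15.7 and 15.9) are near-identical copies, so their split is uncertain.

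Growth factors reached 1 FPKM in 27 of 53 cases (50.9%, close to the 47.6% of all symbols). Hdgf stood at 212 and 216 FPKM and Grn (progranulin) at 172 and 180. The angiogenic family was spread over its members, Vegfa at 75.2 and 74.7, Vegfb at 56.8 and 60.6, Vegfc at 56.8 and 54.9 and Pgf at 32.0 and 31.6, whereas Figf (Vegfd) stood at 0.758 and 0.480. Vegfb and Vegfc differed by less than the 2 values of Vegfb did. Fgf2, Hgf and Fgf10 were listed at 0, and Igf1 was at 0.036 and 0.

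The TGF-beta ligands Tgfb1 (50.2 and 50.7 FPKM) and Tgfb3 (41.0 and 43.2) were high, with Tgfb2 at 2.96 and 3.79. Ltbp3 (129 and 140), which holds latent TGF-beta in the matrix, and the procollagen protease Bmp1 (120.3 and 126) were higher than the ligands. Bmp2, Bmp4, Bmp6, Grem1 and Gdf15 were at 0. Of the Wnt genes, Wnt7b led with 37.1 and 36.3, followed by Wnt10b (7.18 and 6.16) and Wnt6 (4.01 and 4.09), and Wls, which carries Wnt proteins to the surface, stood at 73.3 and 69.1. Wnt3a, Wnt5a, Dkk1 and all 4 R-spondins were listed at 0.

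Of 51 matrix genes 29 reached 1 FPKM (56.9%, against 47.6% of all symbols) and 10 exceeded 100 FPKM, led by Spp1, Fn1 and Sparc. Among genes of the basement membrane, the laminins Lamb1 (226 and 228) and Lama5 (123 and 132), type IV collagen Col4a1 (139.5 and 144.6) and Col4a2 (80.5 and 81.3) and Agrn (112.5 and 122) were high or very high, and Mgp, an inhibitor of matrix calcification, stood at 235 and 228. The fibrillar collagen gene Col5a1 was high at 49.1 and 51.2, with Col1a1 low and Col1a2, Col3a1 and Col5a2 at 0. Lama1, Lox and Postn were also at 0, and Tnc stood at 0.062 and 0.036. The basal laminin chains Lama3 (0.018 and 0.012) and Lamb3 (0.225 and 0.276) were silent and low.

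Of 56 matrix proteases and inhibitors 30 reached 1 FPKM (53.6%, close to the 47.6% of all symbols). Serpine2 (protease nexin 1) stood at 1636 and 1597 FPKM, the lysosomal protease Ctsl at 1579 and 1554 and the cathepsin inhibitor Cst3 at 438 and 463. Of the matrix metalloproteases, Mmp3 (125 and 120.4), the membrane-bound Mmp14 (117 and 118) and Mmp9 (68.5 and 71.9) were highest. Mmp2 was at 0.302 and 0.436 and Mmp7 and Mmp16 were at 0. Timp2, at 146 and 149, and Timp1, at 54.25 and 59.17, were the expressed genes of the Timp family, with Timp3 at 0 and 0.014. Plau (urokinase, 58.4 and 55.3) and its receptor Plaur (23.7 and 27.0) were both high.

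Of 26 integrins 14 reached 1 FPKM (53.8%, against 47.6% of all symbols) and 10 were silent. Itga3, a laminin-binding chain, was the highest at 229 and 239 FPKM, its partner Itgb1 at 167 and 155, and Itgb5 at 107 and 111. Itgb2, the beta chain of leukocyte integrins, was high at 86.8 and 90.8, but the alpha chains it pairs with, Itgal, Itgam, Itgax and Itgad, were all listed at 0, which for Itgal allows up to 0.0534 and 0.0541 FPKM. The leukocyte markers Cd3e (limits of 0.145 and 0.148 FPKM), Ptprc (0.791 and 0.871) and Adgre1 (1.15 and 1.32) were at 0 beside it. Itga4, Itgb6 and Itgb8 were also at 0.

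Tetraspanins led the list of other surface adhesion genes, Cd9 at 507.2 and 499.9 FPKM and Cd63 at 491 and 476. Vcam1, a ligand of leukocyte integrins usually found on inflamed endothelium, was high at 55.8 and 51.7, and the selectins Selp (14.4 and 14.3) and Sele (3.82 and 3.43) were above 1. Icam1 was at 0.262 and 0.451. Gja1 (connexin 43, 78.0 and 76.0) was the main gap junction gene, with Gjb2 and Gjb1 at 0. Focal adhesion and actin genes were nearly complete, 36 of 42 at 1 FPKM or more (85.7%, against 47.6% of all symbols). Only the muscle or tissue forms Tpm2, Tagln, Fermt3, Myl9, Vil1 and Fermt1 fell short. Actb (952 and 954) and Actg1 (896 and 943) gave shares of 50.9% and 49.1% of all actins listed, while Acta2 and Acta1 together were under 0.1 FPKM in the mean.

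Class I antigen presentation genes ranged from moderate to very high, and of the class II genes listed only the invariant chain Cd74 reached 1 FPKM, at 1.21 and 1.16. B2m, the light chain of class I, stood at 2013 and 2001 FPKM, H2-D1 at 429 and 442 and H2-K1 at 54.7 and 59.1, while the immunoproteasome gene Psmb9 was moderate at 6.08 and 7.61. Classical class I genes are near-identical and polymorphic, so their split is uncertain. H2-Aa and H2-Eb1 were at 0, H2-Ab1 at 0 and 0.063, and their regulator Ciita at 0.111 and 0.050. The checkpoint ligand Cd274 (PD-L1) was moderate at 4.03 and 3.78, Pdcd1lg2 was at 0 and 0.019, and Cd47, a signal that restrains macrophages, was very high at 138 and 132. The costimulators Cd80 and Cd86 were at 0.

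Metabolic genes were widely expressed, and several families mainly through 1 member. Of 296 in 8 lists, 215 or 72.6% reached 1 FPKM, against 47.6% of all symbols. In glycolysis Gapdh stood at 1575 and 1712 FPKM, Pkm at 933 and 970 and Aldoa at 883 and 939. Ldha, the lactate dehydrogenase chain favoured in glycolytic cells, stood at 554 FPKM in both libraries and held 98.6% of the family, against 1.39% for Ldhb at 7.17 and 8.45. The glucose transporter Slc2a1 (76.3 and 83.7) held 86.0% of its family. Of the lactate carriers, Slc16a1 (MCT1) stood at 47.4 and 45.0, and Slc16a3 (MCT4) at 0.056 and 0. Eno1 (214 and 282) has a near-identical copy, Eno1b, listed at 631 and 629 FPKM, so the split between them is uncertain.

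Some liver and muscle forms were at or near 0 and others were high. The liver form Pfkl stood at 83.3 and 89.4 FPKM and led the phosphofructokinases with 48.0% of the family, and the muscle forms Pfkm (36.8 and 38.5) and Eno3 (91.1 and 93.7) were high as well. Pck2, the mitochondrial enzyme of phosphoenolpyruvate synthesis, was at 61.0 and 65.7 FPKM and Pck1, the cytosolic one, at 0, which allows up to 0.0750 and 0.0761. Fbp1, G6pc, Pklr and Slc2a2, genes of glucose output, breakdown and transport in liver, were at 0. The pentose phosphate genes Tkt (178 and 186), Taldo1 (90.1 and 89.4), Pgd (74.7 and 77.0) and G6pdx (68.4 and 70.0) were high or very high. In the citrate cycle list 32 of 35 reached 1 FPKM (91.4%, against 47.6% of all symbols), with Pdha2, a testis form, and Pdk4 at 0. Among respiratory chain forms, Cox4i1 (534.5 and 520.8) and Cox8a (459 and 519) stood against Cox4i2 (0.238 and 0.602) and Cox8b (0), and Ucp2 (174 and 201) against Ucp1 and Ucp3 (0).

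**Figure D5:**
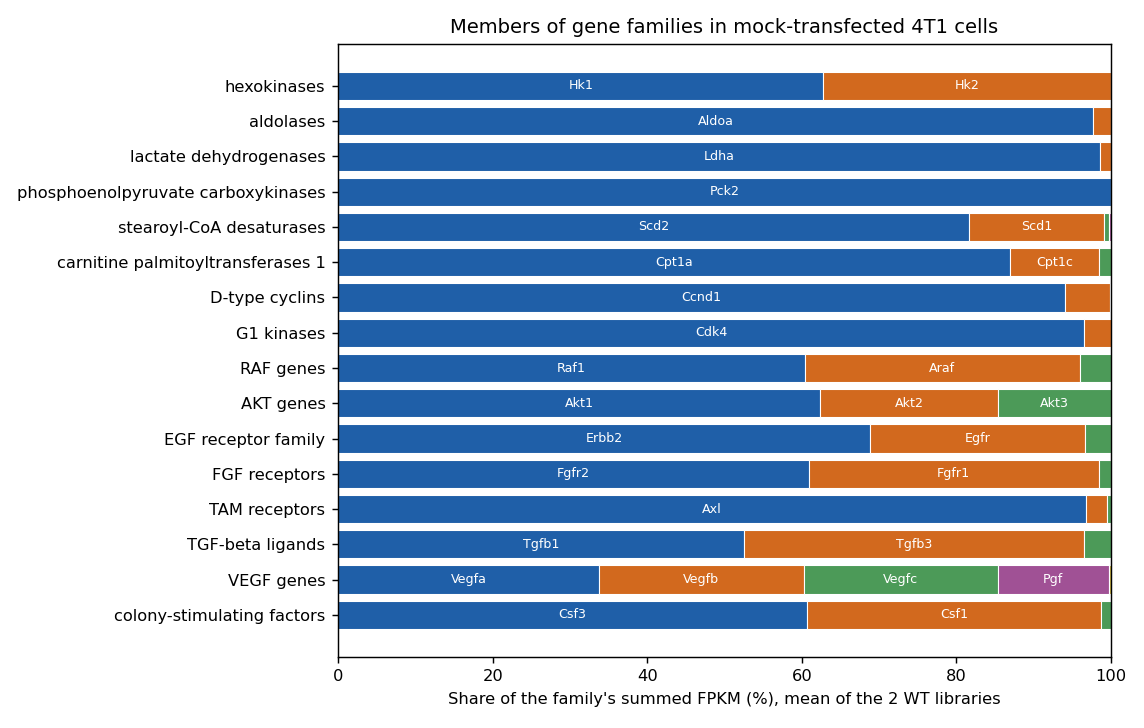
Share of the summed FPKM of each of 16 gene families held by its members, as the mean of the 2 WT libraries, with members ordered by share and named where they hold over 7%. Single members hold nearly all of the lactate dehydrogenase (Ldha, 98.6%), carboxykinase (Pck2, 100%), D-type cyclin (Ccnd1, 94.0%) and TAM receptor (Axl, 96.8%) families, whereas the VEGF genes are spread.

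Lipid and sterol genes were mostly expressed, 33 of 49 (67.3%) and 22 of 27 (81.5%) at 1 FPKM or more, against 47.6% of all symbols. Scd2 (224.6 and 226.5 FPKM) held 81.7% of the stearoyl-CoA desaturases, with Scd1 at 47.8 and 48.8, and Fabp5 (48.9 and 43.0) held 98.01% of the fatty acid binding proteins listed. Fasn stood at 42.0 and 46.3, Acly at 49.8 and 50.7 and Cpt1a, the gate of fatty acid oxidation, at 25.2 and 26.3. Of the uptake genes, Lpl (0.080 in both libraries) was silent. Cd36 was listed at 0, which allows up to 0.356 and 0.373 FPKM, so it may be low. Of the sterol pathway, Fdps (76.8 and 79.7) and Sqle (62.7 and 62.9) were high.

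Amino acid genes were led by Odc1, which starts polyamine synthesis, at 391 and 385 FPKM. The serine pathway genes Phgdh (176 and 180), Psat1 (164 and 168) and Shmt2 (119 and 126) were very high and Psph (27.5 and 26.7) was high. Asns, asparagine synthetase, stood at 121 and 122, and the transporter pair Slc7a5 (133.7 and 138.5) and Slc3a2 (176 and 182) was very high. Ass1, argininosuccinate synthetase, was at 0 and 1.08, a disagreement between the libraries. Nos2 stood at 4.39 and 4.18 and Arg2 at 11.87 and 13.03, whereas Arg1 was at 0.048 and 0 and Ido1, Otc, Cps1 and Bcat1 were at 0.

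Of 49 redox, iron and detoxification genes 37 reached 1 FPKM (75.5%, against 47.6% of all symbols). Beside the ferritins, Gpx4, which removes lipid peroxides, stood at 521 and 504, Prdx1 at 424 and 425 and Sod1 at 400 and 405. The metallothioneins Mt1 (158 and 179) and Mt2 (122.5 and 123.9) were very high. Nqo1, a target of Nfe2l2, was high at 12.8 and 12.7 while Nfe2l2 itself stood at 90.7 and 89.3. Gpx2, Hamp and Cyp3a11 were at 0.

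Of 189 genes in 6 cell cycle and growth lists 153 reached 1 FPKM (81.0%) and 29 were silent. All 34 DNA replication genes and all 32 mitotic genes reached 1 FPKM, the latter all above 10 FPKM, against 47.6% of all symbols. Pcna, the sliding clamp of replication, stood at 218 and 219, Mcm7 at 118 in both and Rrm2 at 104 and 101. Ube2c, the ubiquitin carrier of the anaphase-promoting complex, led the mitotic list at 270 and 273, and Mki67, the antigen Ki-67, stood at 61.0 and 59.0. The lowest mitotic gene was Espl1 (separase) at 10.8 and 11.8. Replication-dependent histone genes, whose transcripts mostly lack a poly(A) tail, reached 1 FPKM in only 8 of 68 cases, led by Hist1h1c at a mean of 10.6, in libraries made with an mRNA kit.

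Among the regulators of G1, 1 cyclin and 1 kinase held most of the RNA. Ccnd1 stood at 452 and 455 FPKM and held 94.0% of the D-type cyclins, with Ccnd3 at 27.0 and 28.8 and Ccnd2 at 0.669 and 0.988. Cdk4, at 388 and 397, held 96.6% against 3.42% for Cdk6. The E-type cyclins Ccne1 (4.87 and 4.46) and Ccne2 (2.63 and 2.33) were moderate. Germline forms Ccna1 and Ccnb3 were at 0, as were 15 of 20 meiotic and germ cell genes, none of which reached 1 FPKM.

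The INK4 inhibitors of Cdk4 split by locus. Cdkn2a, which encodes p16 and p19, and Cdkn2b, which encodes p15, were listed at 0 in both libraries. Their limits are 0.277 and 0.287 FPKM for Cdkn2a and 0.154 and 0.157 for Cdkn2b. The gene next to them, Mtap, was very high at 366 and 349 FPKM (chr4:89137122-89181081), with Cdkn2a at chr4:89274471-89294653 and Cdkn2b at chr4:89306299-89311039. On the far side Dmrta1 and Zfp352 were also at 0, and the alpha interferon genes on the other side of Mtap were at 0, while Klhl9, which lies among them, stood at 15.3 and 15.0. An RNA table does not show whether a gene at 0 is present in the genome. The paralogues at other loci were expressed, Cdkn2c at 113 and 110 FPKM and Cdkn2d at 44.8 and 43.9, and so were Cdkn1b (78.7 and 76.1) and Cdkn1a (14.49 and 16.04).

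Trp53 RNA was high at 50.9 and 54.3 FPKM. Of 28 cell cycle inhibitors and p53 targets listed, 21 reached 1 FPKM (75%, against 47.6% of all symbols). Silent members numbered 6, against 44.7% of all symbols. The targets Mdm2 (25.6 and 24.4), Bax (96.63 and 99.25) and Bbc3 (11.1 and 12.6) were high. Lower targets were Aen (4.98 and 4.50), Btg2 (1.91 and 1.57), Zmat3 (1.11 and 1.07) and Perp (0.362 and 0.329). Pmaip1 and Eda2r were at 0. The activity of p53 was not tested. Of the growth genes, Ctnnb1 stood at 591 FPKM in both libraries and Myc at 65.5 and 65.4, 98.5% of the Myc family. Hmga2, a gene of fetal tissue, stood at 61.15 and 59.98 and Igf2bp2 at 124 and 125. Tert, the telomerase catalytic chain, was moderate at 3.10 and 3.46. Of the Ras genes described here, Nras stood at 27.3 and 26.3 and Hras at 11.4 and 13.1.

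Large families tied to specialised tissues were at 0 with few exceptions. Of 1120 olfactory receptor symbols 1109 were at 0 and 1, Olfr856-ps1, reached 1 FPKM, at 3.08 and 2.94. Of 325 vomeronasal receptors 316 were at 0, and the highest was Vmn1r58, at 0.544 and 0.575. Of 56 defensins 55 were at 0, the other being Defb25 at 4.38 and 0.739, and all 53 keratin-associated proteins and all 21 late envelope genes of skin were at 0. Type I interferons, 18 genes, had 16 at 0, with Ifnb1 at 0.11 and 0.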

How the data were processed

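RNA was isolated on columns from the 2 mock-transfected 4T1 samples and made into stranded mRNA libraries, per the labels' protocols. For each library the authors deposited a table of symbols and values, with no unit written in it. The values were taken as FPKM: the deposited numbers are not whole, their sums differ, and Cufflinks (version 2.2.1) is among the tools of the submitters' processing notes. Those notes list mm10, SAMtools 0.1.19, Bowtie2 2.2.3 and TopHat2 2.0.13 as well. What each tool did, the annotation, the strand setting and the handling of shared reads are not given here. Overlapping and antisense genes and near-identical copies are therefore uncertain.

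Levels were means of both libraries as deposited. Coordinates came from GENCODE release M21 on GRCm38 (mm10), matching 21999 symbols (95.4%). Depth was estimated from the steps between low values of genes with 1 transcript: 75.7% and 80.0% of 202 and 200 such values lay within 0.1 of a whole fragment number. Limits use 3 fragments and the shortest coding transcript. For genes with a short transcript they are wide, such as Pklr (1.10 and 1.26 FPKM) and Cox8b (1.03 and 1.17). Such genes at 0 cannot be told from low ones. On simulated data the estimate was off by at most 0.160%. Those data held exact whole fragment numbers and from 1109 to 1220 values. The error for the real libraries may therefore be larger and was not measured. The text names, for each list, its highest, defining and silent members, and the leading symbols. Lists, families and this rule were chosen with earlier results of these data known. Alternatives were other level bounds, rescaling, kept short RNAs, protein-coding genes only and each library alone. The work used matplotlib 3.10.9, SciPy 1.17.1, NumPy 2.4.6 and pandas 2.3.3 under Python 3.11.15.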

Additional observations from a re-analysis of the deposited data

How the results depend on the processing

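No paired analysis was possible because only 1 group is described. Of 378 recomputed values, 360 stayed within the limit set for them, 1.5 times for counts and agreement between libraries and 1 SD between libraries for shares of the summed FPKM. Leaving out 1 of 2 libraries cannot move a share past that SD, so those outcomes were fixed in advance. A limit of 1.5 times is also too wide to inform on a correlation near 1. Of 6610 recomputed levels and family shares of single genes 1070 moved by more than 1 SD. The 1729 values without WT replicate 1 and the 1729 without WT replicate 2 could not move either, for the same reason. Rescaling to a common sum moved 1066 levels and left 510 within the limit. Scaling by the median ratio between the libraries moved 4 and left 1572. Symbols at 100 FPKM or more numbered 773 and became 1775 with all bounds halved, 359 with them doubled and 1529 with each library rescaled to a common sum, as in TPM. Those at 1000 FPKM or more numbered 85 and became 145, 27 and 128 in the same order. The leading 10, 100 and 1000 symbols held 10.2%, 35.0% and 66.0% with short RNA symbols kept, and 9.18%, 34.9% and 65.8% of protein-coding levels, against 8.77%, 33.9% and 65.1%. The median difference between the libraries was 7.13% over all symbols above 0. With bounds doubled, 0 basal and stratified keratins (1 before) and 2 chemokine receptors (4 before) reached the bound. Of the adipocyte markers 2 reached it with bounds halved or libraries rescaled, and from 1 to 2 with either library alone, against 1. Levels of single genes kept their order within a library when it was rescaled, since all values change by 1 factor. Agreement between libraries has no value with 1 library left out. With 2 libraries, and low values that differed by a median of 33.9%, the order of low genes is not resolved.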

Other observations

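Short RNA symbols were left out of the ranking. They held 3.51% and 3.60% of the summed FPKM, and 25 of 1278 reached 1 FPKM while 1248 were at 0. Mir703 stood at 12944 and 12385 FPKM, above every gene ranked here. Its 109-base precursor lies inside Cfap299 on the opposite strand (chr5:98475556-98475664). Snora64, inside Rps2, was at 467 and 0 FPKM, and Mir6516, inside Snhg20, at 0 and 298.

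The symbols of at least 10 FPKM that differed most between the libraries included Eif3j1, at 30.1 and 0.103 FPKM, and its near-identical copy Eif3j2, at 16.3 and 41.3. Ndufs5 stood at 4.997 and 17.07, Lars2 at 152 and 307 and Atp6v0c at 23.78 and 12.96. Of the 6886 symbols of that level, 8 differed by more than 50% of their mean.

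Among 731 genes with 1 transcript and at least 20 estimated fragments, the spread between the libraries was 1.68 times the counting variance, and 2.32 times in the 246 genes with 1000 fragments or more.

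The E-box letters CAGGTG, searched on both strands, were in 10 of 15 promoters of epithelial junction genes, among them Epcam, Cldn3, Crb3 and Ocln, and in 19.4% of all promoters. Of the 15 genes 10 reached 1 FPKM, 7 of them with the letters, and Crb3 was at 0.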
